A study of Mus musculus with 2 samples.

Results

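The contactins Cntn1 to Cntn6 and the contactin-associated proteins Cntnap1, Cntnap2, Cntnap4 and Cntnap5b were examined as a family, 10 genes chosen by name from the 32285 counted in the spinal cord. All 10 were present in both matrices, and 3 further family members, Cntnap3, Cntnap5a and Cntnap5c, were used for comparison. Nuclei came from spinal cords of male iNeuroD1GFP mice, given as 8 weeks old in the sample labels, a transgenic line in which NeuroD1 is switched on by tamoxifen. The cords were injured at postnatal day 60, and tamoxifen (100 mg/kg, daily) followed on days 5 to 8 after injury, with tissue of 3 mice collected on day 10. The injury core and the cord around or beyond it, named distal in the titles and design text and peri-injury in the extraction protocol, each gave 1 library of nuclei sequenced with 10x Genomics 3′ chemistry. Both groups share the genotype, the injury and the tamoxifen, so neither is an uninjured or uninduced control, and the labels do not say which promoter drives the transgene or whether the 3 mice were pooled.

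Contactins are immunoglobulin-superfamily adhesion molecules held in the membrane by a lipid anchor, and the contactin-associated proteins are transmembrane relatives of the neurexins that pair with them. On myelinated axons, Cntn1 and Cntnap1 form the axonal side of the paranodal junction beside each node of Ranvier and bind neurofascin on the glial loop. Cntn2 and Cntnap2 gather potassium channels in the neighbouring juxtaparanode, where Cntn2 is supplied by both the axon and the glial cell. Cntn3 to Cntn6, Cntnap4 and the Cntnap5 genes are better known from neurite growth and synapses, Cntnap4 from inhibitory neurons in particular.

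The core library held 16362 barcodes and 30469263 unique transcript counts (UMIs), with a median of 1303 UMIs per barcode, and the distal library held 7452 barcodes, 19049572 UMIs and a median of 1743. The 2 libraries shared 38 barcode sequences. Clusters were classed by marker genes, so that each class name below stands for nuclei like that cell type, which gave 8536 core and 1984 distal neurons, 17 and 1713 oligodendrocytes, 56 and 459 oligodendrocyte precursor cells (OPCs), 76 and 629 astrocytes, and 57 and 876 myeloid nuclei. The 9 neuronal markers were found in every one of these classes, 8 of them in core oligodendrocytes, with summed levels of 5882 to 6991 CPM (UMIs scaled to the class total) in neurons, 1195 to 2435 CPM in distal glia and myeloid nuclei and 2744 to 6039 CPM in the core ones. Neuronal transcripts were thus present in droplets of every class. A further 6703 core barcodes formed a background-like cluster whose barcodes varied little more than draws from a shared profile. In it the 10 genes stood at 0.91 to 1.14 times their level in core neurons. At a finer clustering 525 distal myeloid nuclei joined a cluster that also held oligodendrocyte transcripts. The myeloid values below are those of the 349 distal and 54 core nuclei left, except in the comparison of patterns.

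The gene bodies differ widely in length, from 20.2 kb for Cntnap1 (GRCm38 chromosome 11, 101170523 to 101190724, plus strand) and 33.8 kb for Cntn2 (chromosome 1, 132509427 to 132543256, minus strand) to 2245 kb for Cntnap2 (chromosome 6, 45059357 to 47304213, plus strand). Cntn3 (102162655 to 102573101, minus strand), Cntn6 (104492790 to 104863406, plus strand) and Cntn4 (105677660 to 106699310, plus strand) lie near each other on the same chromosome 6. Cntn1 spans 92051165 to 92341967 on the plus strand of chromosome 15. RefSeq promoter windows on GRCm38.p6 covered 8 of the 10 genes in 13 windows, and not those of Cntnap1 and Cntnap4. The 250 bases upstream of the RefSeq start are shown for Cntn2 and Cntnap2, partners in a complex whose RNAs led in different classes. Cntn6 is shown as well, with 4 E-boxes in its window, the motif CANNTG that proneural factors such as NeuroD1 recognise. The RefSeq starts differ from the ends of the gene spans above, and each window shown lies inside the span of its gene. Sequences run 5′ to 3′ toward the start site on the gene's own strand, with every CANNTG in capitals.
Cntn2, chr1:132542941-132543190, minus strand: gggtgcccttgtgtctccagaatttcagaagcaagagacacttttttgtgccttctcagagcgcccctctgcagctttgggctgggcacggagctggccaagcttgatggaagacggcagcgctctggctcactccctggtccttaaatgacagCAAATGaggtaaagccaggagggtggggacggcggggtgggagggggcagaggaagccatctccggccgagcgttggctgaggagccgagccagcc
Cntnap2, chr6:45059811-45060060, plus strand: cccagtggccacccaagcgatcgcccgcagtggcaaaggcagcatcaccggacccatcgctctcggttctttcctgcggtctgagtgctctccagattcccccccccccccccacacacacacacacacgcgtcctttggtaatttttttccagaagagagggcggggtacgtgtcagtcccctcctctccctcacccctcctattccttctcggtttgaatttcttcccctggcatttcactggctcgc
Cntn6, chr6:104492794-104493043, plus strand: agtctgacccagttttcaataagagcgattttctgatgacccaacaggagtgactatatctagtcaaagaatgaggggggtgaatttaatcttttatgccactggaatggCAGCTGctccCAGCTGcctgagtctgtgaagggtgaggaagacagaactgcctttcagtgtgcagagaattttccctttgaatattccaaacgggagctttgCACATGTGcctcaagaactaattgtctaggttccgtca
The Cntn2 window held 1 CANNTG, beginning 96 bases before the start, the Cntnap2 window shown held 0, and the Cntn6 window held 4, as did 1 window of Cntn4. A second Cntnap2 window, chr6:47244146-47244395, held 1. Of the 4 in Cntn6, 2 were CAGCTG and 2 overlapped each other. At least 1 CANNTG, which reads the same on both strands, was present in 66.2% of all 32851 RefSeq windows of this length and CAGCTG in 13.0%. The share of windows with 4 or more CANNTG was not computed. CAGATG, searched on both strands as CAGATG and CATCTG, was found in 0 of the 13 windows of the family and in 14.4% of all windows. ACAAAG, the core of the motif of Sox factors, searched on both strands as ACAAAG and CTTTGT, had 0 matches in the 13 windows and occurred in 16.5% of all. These matches describe letters and no binding was measured.

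In neurons every member was detected, and the CPM of the 10 genes ranged widely. All levels are CPM of the summed UMIs of a class, with an exact Poisson 95% interval that covers counting error only. Cntnap2, the juxtaparanodal partner of Cntn2, stood at 4646 CPM (4591 to 4701) in distal and 4836 CPM (4807 to 4865) in core neurons, and 97.1% (96.2 to 97.8, exact Clopper-Pearson interval) and 99.6% (99.4 to 99.7) of the nuclei held at least 1 UMI. Cntn4, a neurite-growth contactin, stood at 1101 CPM (1074 to 1128) in distal and 1218 CPM (1204 to 1233) in core neurons, and Cntn5, a synaptic relative, at 968 CPM (944 to 994) and 1254 CPM (1239 to 1269). Cntnap2 was also detected in 73.6% of distal and 94.4% of core myeloid nuclei, which should lack it, and stood in core background-like barcodes at 1.09 times the core neuron level. A UMI of Cntn4 was present in 67.4% and 81.6% of distal and core neurons, against 35.2% and 63.0% of myeloid nuclei, and one of Cntn5 in 55.1% and 79.6%, against 27.2% and 74.1%. The myeloid nuclei were shallower, with medians of 852 distal and 1059.5 core UMIs against 2328 and 1976 in neurons.

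Cntn1, the paranodal contactin, gave 607 CPM (587 to 627) in distal and 635 CPM (624 to 645) in core neurons. Cntnap5b gave 509 CPM (491 to 528) and 556 CPM (546 to 566), Cntn3 gave 502 CPM (484 to 520) and 383 CPM (375 to 391), and Cntn6 gave 360 CPM (345 to 376) and 410 CPM (402 to 419). Their detection in distal neurons ran from 43.9% for Cntn6 to 66.0% for Cntn1. Cntnap4 gave 171 CPM (160 to 182) and 222 CPM (216 to 228), Cntn2 gave 82.4 CPM (75.3 to 90.05) and 90.7 CPM (86.7 to 94.8), and Cntnap1 gave 47.9 CPM (42.5 to 53.8) and 70.1 CPM (66.6 to 73.7). These 3 genes were found in 25.1%, 19.96% and 11.8% of distal neurons. Cntnap2 is a very long gene and nuclear RNA can hold introns, so levels of different genes were compared per 100 kb of gene span.

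On that scale Cntn2 at 244 CPM per 100 kb, Cntnap1 at 237, Cntn1 at 209 and Cntnap2 at 207, the 4 junction genes, had the largest values in distal neurons, although Cntn2 and Cntnap1 had the lowest CPM of the 10. Cntn3 at 122, Cntn4 at 108, Cntn6 at 97.2, Cntn5 at 77.9, Cntnap5b at 71.4 and Cntnap4 at 54.6 CPM per 100 kb made up the rest. In core neurons the same 4 genes lay between 215 and 347 CPM per 100 kb, and the other 6 between 70.9 and 119. The scale assumes that UMIs grow with gene span, which was not measured. Cntn2 and Cntnap1 have the shortest spans of the family, 33.8 and 20.2 kb, and division by span raises them most. In distal neurons Cntn2 also stood at 0.26 times its oligodendrocyte level, where oligodendrocyte markers stood at 0.064 to 0.24. The part of oligodendrocyte RNA in its neuronal value was not tested.

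**Figure D1:**
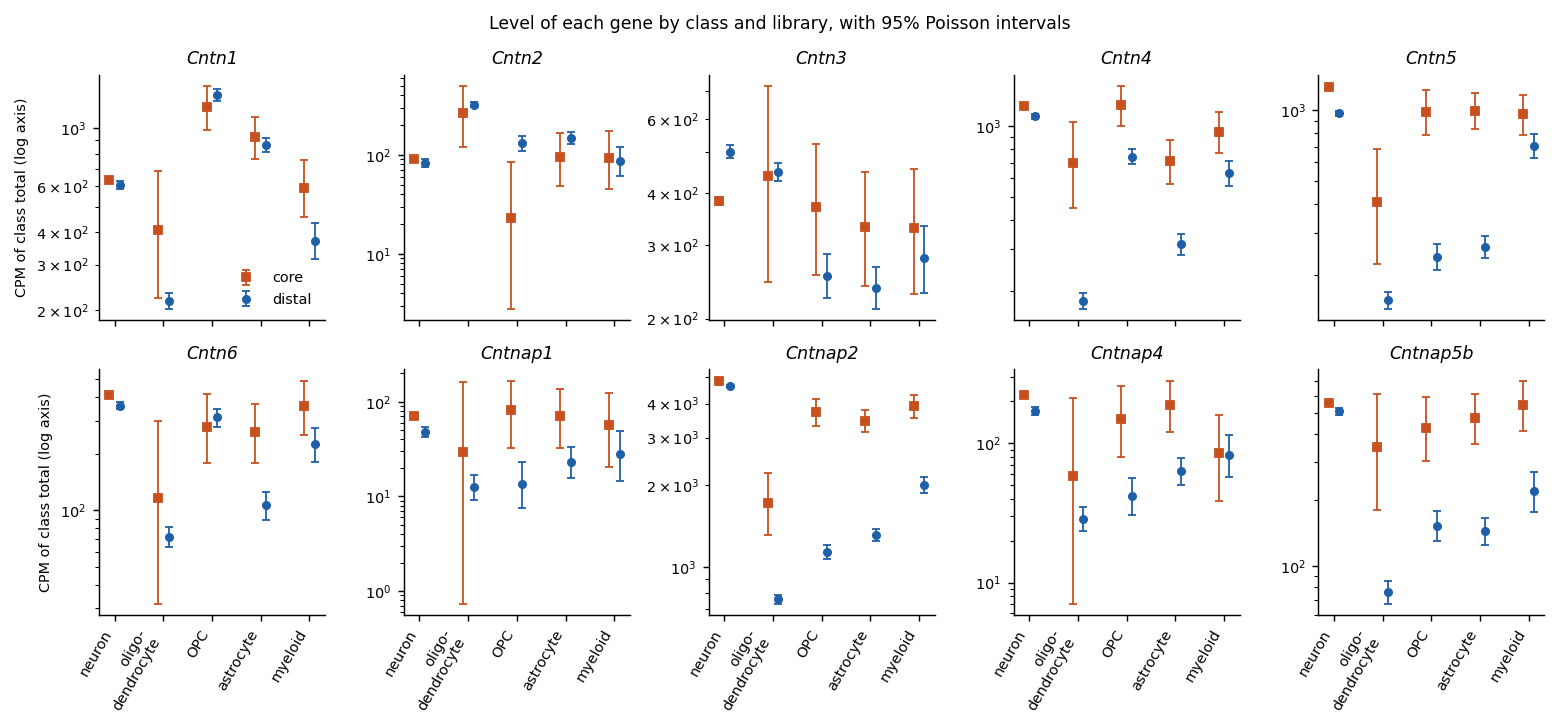
Level of each gene (CPM of the class total, log axis, with 95% Poisson intervals) in 5 classes of the core library (squares) and the distal library (circles). Among the distal classes Cntn1 is highest in OPCs, Cntn2 in oligodendrocytes and the other 8 genes in neurons, while core OPCs, astrocytes and myeloid nuclei lie well above the distal ones for Cntnap2 and Cntnap5b.

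Cntn2, known from both sides of the juxtaparanode, was the only gene of the 10 with its highest distal level in oligodendrocytes among the 5 main classes. It gave 1186 UMIs there, 322 CPM (304 to 341), against 82.4 CPM in neurons, and the 17 core oligodendrocytes gave 9 UMIs, 263 CPM (120 to 499). Distal oligodendrocytes thus held 3.91 times the neuronal level (3.51 to 4.35). At least 1 UMI was present in 45.1% of distal oligodendrocytes and 19.96% (18.2 to 21.8) of distal neurons, at median depths of 1818 and 2328 UMIs, and in 9.7% of the myeloid nuclei, which should lack it, at a median of 852. After every nucleus of at least 1000 UMIs was thinned to 1000, which left out 114 oligodendrocytes, 131 neurons and 226 myeloid nuclei, the shares were 26.1%, 8.2% and 10.6%. The neuronal share after thinning therefore lay at or below the myeloid one.

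Oligodendrocyte markers were found in every distal class, and the level of Cntn2 outside oligodendrocytes was set beside theirs. The 9 oligodendrocyte markers stood in distal OPCs at 0.30 to 0.56 and in distal astrocytes at 0.32 to 0.51 times their oligodendrocyte level. Cntn2 stood at 0.41 (0.34 to 0.49) and 0.46 (0.39 to 0.54), inside those ranges, with levels of 131 CPM in OPCs and 149 CPM in astrocytes. The part of free RNA or of doublets in these levels was not tested. In distal neurons the markers stood at 0.064 to 0.24 and Cntn2 at 0.26 (0.23 to 0.28), level with the highest marker. In core neurons, where the same markers summed to 394 CPM against 2042 CPM in distal neurons, Cntn2 gave 90.7 CPM, and core background-like barcodes held 0.91 times that level.

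Cntn1 was higher in distal OPCs and astrocytes than in neurons. Distal OPCs held 1343 CPM (1273 to 1416) and distal astrocytes 865 CPM (815 to 917), against 607 CPM in neurons, 371 CPM (315 to 433) in myeloid nuclei and 218 CPM (203 to 234) in oligodendrocytes. OPCs thus stood at 2.21 times (2.08 to 2.36) and astrocytes at 1.43 times (1.33 to 1.53) the neuronal level, while neuronal markers stood at 0.17 to 0.70 times in OPCs and 0.29 to 0.42 times in astrocytes. The 2 core classes gave close values of 1205 CPM (984 to 1460) and 923 CPM (764 to 1107), or 1.90 and 1.46 times core neurons. Cntn1 was the only member of the family whose interval lay above the neuronal marker range in OPCs and astrocytes of both libraries. The OPC class here included committed precursors, which are described below. At the finer clustering, 393 distal OPCs without them held 1106 CPM (1037 to 1178) of Cntn1. In the core that clustering gave 21 OPCs and 36 precursors.

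Cntn3 was shared between neurons and oligodendrocytes, and Cntn6 between neurons and OPCs. Cntn3 gave 449 CPM (427 to 471) in distal oligodendrocytes, 0.89 times the neuronal level (0.84 to 0.95), and 203 to 279 CPM in distal OPCs, astrocytes, myeloid and endothelial nuclei. A UMI of it was present in 48.6% of distal oligodendrocytes and 57.0% of distal neurons, or 32.0% and 36.3% after thinning, against 21.95% of thinned myeloid nuclei. Cntn6 gave 312 CPM (279 to 348) in distal OPCs, 0.87 times the neuronal level (0.77 to 0.97), above the highest neuronal marker there, Elavl4 at 0.70 (0.57 to 0.85). Cntn4 at 743 CPM (691 to 797), or 0.67 times (0.63 to 0.73), was level with that marker.

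The remaining members in distal glia stood in or near the range of the neuronal markers. In distal oligodendrocytes Cntn4, Cntn5, Cntn6 and the 4 contactin-associated proteins stood at 0.15 to 0.26 times the neuronal level, where the 7 neuronal markers of the ratio stood at 0.10 to 0.26. Cntn1 in oligodendrocytes, at 0.36 (0.33 to 0.39), lay above that range. In astrocytes Cntn4, Cntn5, Cntn6, Cntnap2 and Cntnap5b stood at 0.27 to 0.29, and Cntnap4 at 0.37. Cntnap1 at 0.48 (0.32 to 0.71) and Cntn3 at 0.47 (0.42 to 0.53) had intervals that reached into the marker range there. Cntnap2 in myeloid nuclei reached 2009 CPM (1876 to 2148), with a UMI in 73.6% of them, although this class should lack it.

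**Figure D2:**
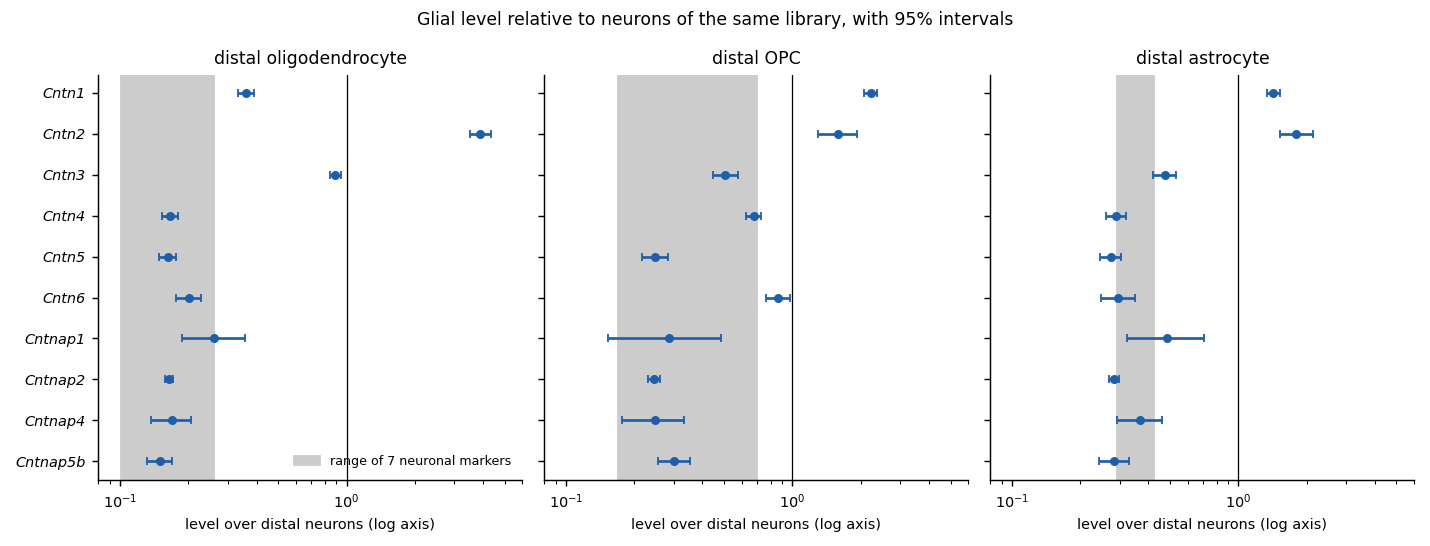
Level of each gene in distal oligodendrocytes, OPCs and astrocytes divided by its level in distal neurons (log axis, points with 95% intervals), with the range of 7 neuronal markers shaded. With their whole intervals, Cntn1, Cntn2 and Cntn3 in oligodendrocytes and Cntn1, Cntn2 and Cntn6 in OPCs stand to the right of the shading. In astrocytes Cntn1 and Cntn2 do so, and the 4 contactin-associated proteins lie in or near the shading in each panel.

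At the finer clustering, OPCs parted from a cluster of 65 distal and 36 core nuclei led by Tcf7l2, a regulator of oligodendrocyte differentiation. It was committed-precursor-like by Tcf7l2 (4301 CPM against 230 in OPCs), Bcas1 (1992 against 689) and Enpp6 (543 against 129), with Pdgfra at 20.6 CPM against 161 in OPCs, although Gpr17 was low in both, at 13.7 and 29.7 CPM. Cntn1 stood at 2741 CPM (2479 to 3024) in the distal committed precursors, at 1106 CPM (1037 to 1178) in OPCs, and at 294 and 145 CPM in the 2 oligodendrocyte clusters. Its precursor level was 12.6 times (11.1 to 14.2) that of oligodendrocytes, and the OPC level 0.40 times (0.36 to 0.45) that of the precursors. A UMI of Cntn1 was present in 90.8% of these 65 nuclei and 78.4% of the OPCs. In the core library the 36 precursors gave 1222 CPM (956 to 1539), close to the 1213 CPM (840 to 1695) of the 21 core OPCs. Neuronal markers were more abundant in core OPCs (5225 CPM summed) than in distal ones (1848 CPM), precursors included, and their part in the difference was not tested.

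The other contactins followed other patterns along the lineage. Cntn4 stood at 818 CPM (759 to 880) in distal OPCs and 316 CPM (231 to 422) in precursors, and Cntn6 at 337 CPM (299.9 to 378) and 151 CPM (94.7 to 229), ratios of OPCs over precursors of 2.59 (1.92 to 3.57) and 2.23 (1.45 to 3.62). Syt1, a neuronal marker, had a ratio of 0.79 (0.62 to 1.02) between the same groups. Cntn2 gave 82.4 CPM (42.6 to 144) in precursors, from 12 UMIs, against 351 and 293 CPM in the oligodendrocyte clusters. The Cntn2 interval of the precursors overlapped that of the OPCs (115 to 165), and both lay below those of the oligodendrocyte clusters.

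The 2 distal oligodendrocyte clusters differed in Cntn1 and Cntn3. The cluster of 868 nuclei led by D7Ertd443e and Ninj2 held 2.03 times (1.75 to 2.36) the Cntn1 of the cluster of 848 nuclei led by Mob3b, 294 against 145 CPM. It held 0.60 times (0.54 to 0.66) the Cntn3, 332 against 558 CPM. Mog, a myelin protein gene, differed little between them, at a ratio of 1.04 (0.96 to 1.13). Cntn2 stood at 1.198 times (1.07 to 1.35) in the D7Ertd443e-Ninj2 cluster relative to the other, and the remaining 7 genes had ratios of 0.95 to 1.54 with intervals that include 1.

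**Figure D3:**
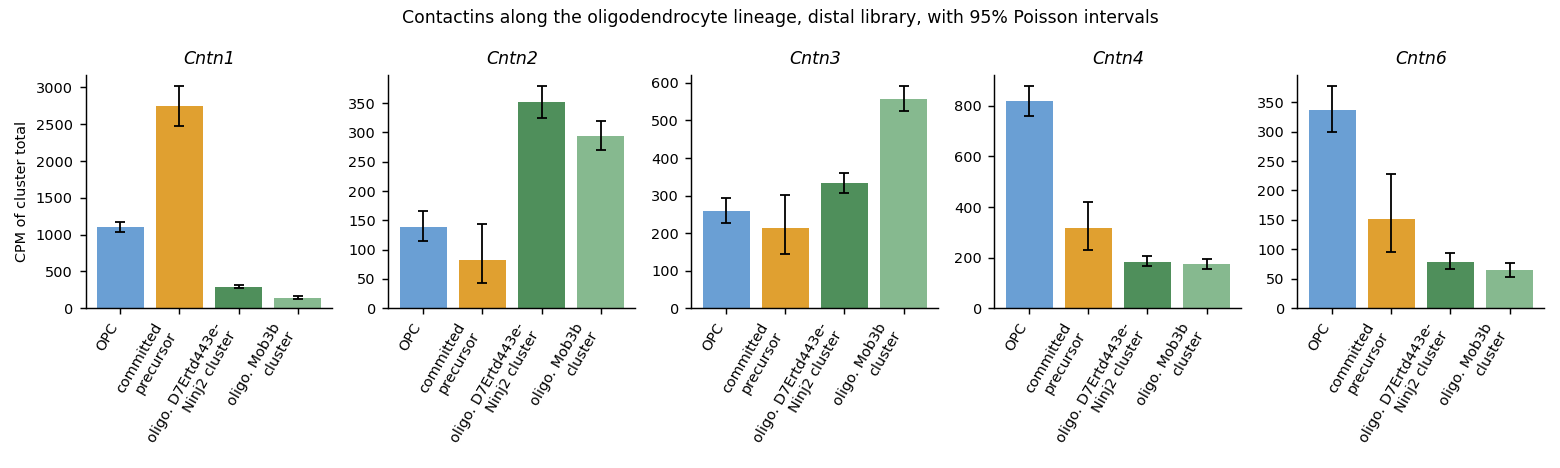
Level of 5 contactins (CPM of the cluster total, bars with 95% Poisson intervals) in distal OPCs, committed precursors and the 2 oligodendrocyte clusters of the finer clustering. Cntn1 peaks in committed precursors at 2741 CPM, Cntn4 and Cntn6 are highest in OPCs, and Cntn2 and Cntn3 are highest in oligodendrocytes.

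Among distal astrocytes, 423 nuclei formed a cluster led by Gfap, a reactive astrocyte gene, and 206 a cluster with Slc7a10 among its leading genes. Cntn1 gave 807 CPM in the Gfap cluster and 986 CPM in the Slc7a10 cluster, a ratio of 0.82 (0.72 to 0.93). Gfap itself had a ratio of 9.22 (6.92 to 12.5). High Cntn1 was therefore present in both astrocyte clusters.

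The study induced NeuroD1, so distal astrocytes with and without a Neurod1 UMI were set side by side. The 28 positive nuclei had a median of 2543.5 UMIs and the 601 negative nuclei 1418. Cntn1 gave 793 CPM in positive and 871 CPM in negative nuclei, a ratio of 0.91 (0.72 to 1.14). Of the 10 members, 3 had an interval that excluded 1. They were Cntnap4 at 2.11 (1.07 to 3.86), from 13 UMIs, Cntnap2 at 1.22 (1.04 to 1.44) and Cntn5 at 0.58 (0.33 to 0.95), from 17 UMIs. These intervals were not adjusted for the 10 genes looked at, and the counts do not separate transgenic from endogenous Neurod1.

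Neurons and oligodendrocytes, the cell types that build the axon-glia junction, were compared in the distal library across all genes. With at least 10 CPM in either class and a fold of 2, 8 of the 10 members were higher in neurons, 1 was lower and 1 was neither, while of 10285 genes 22.6% were higher and 16.0% were lower. The lower gene was Cntn2 and the gene past neither fold was Cntn3. The 8 higher members ran from 2.78 times for Cntn1 (2.58 to 3.01) and 3.84 times for Cntnap1 (2.80 to 5.36) to 6.70 times for Cntnap5b (5.93 to 7.60), with Cntnap2 at 6.11 (5.87 to 6.35). The median log2 ratio of the members was 2.44, against -0.08 over all genes tested. With 1 library per region there is no test, and the ratios carry exact conditional 95% intervals.

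In the core library, with 17 oligodendrocytes, 5 members were higher, 1 was lower and 4 were neither, while of 9941 genes 38.6% were higher and 27.8% were lower. The higher members were Cntn5, Cntn6, Cntnap1, Cntnap2 and Cntnap4, and Cntn2 was again the lower one, at 0.345 (0.18 to 0.76). Each core value rests on 1 to 59 oligodendrocyte UMIs, with 1 for Cntnap1, at 2.40 times (0.43 to 94.9), and 2 for Cntnap4, at 3.80 times (1.05 to 31.4). The median log2 ratio of the members was 0.72, against -0.66 over all genes. A scaling by trimmed means shifted all core log2 ratios by 0.67 and turned the split of all genes from 3836 higher and 2763 lower to 5841 and 1737, with 8 members higher and 0 lower.

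The other genes of these junctions, from a list of 24, were split between the classes. In the distal comparison 10 of the 24 were higher in neurons, 5 were lower and 9 were neither, with a median log2 ratio of 0.45. Over all 10285 genes tested there, 22.6% were higher and 16.0% were lower. Sptbn4, the nodal spectrin, at 5.46 times (4.76 to 6.28) and Scn1a, a sodium channel, at 4.96 times (4.29 to 5.76) had the largest ratios, and the myelin genes Mag at 0.12 (0.11 to 0.13) and Opalin at 0.15 (0.12 to 0.19) the smallest. Of 14 genes listed as contactin binding partners, a list that also held Cntfr, 12 had at least 10 CPM. Of these 5 were higher and 4 lower, beside the same shares of all genes. Ptprg, a phosphatase bound by Cntn3 to Cntn6, at 5.97 times (5.404 to 6.62) and Chl1, an adhesion molecule of the L1 family, at 4.70 (4.02 to 5.52) had the largest ratios. Ptpra at 0.39 (0.35 to 0.43) and Nfasc, whose glial form is the paranodal partner of Cntn1, at 0.41 (0.39 to 0.44) were the lowest. The UMI counts do not separate the glial and neuronal forms of Nfasc.

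Nrxn3, a presynaptic relative of the contactin-associated proteins, stood in distal neurons at 6.20 times (5.96 to 6.47) its oligodendrocyte level. Cntnap5c at 7.91 times (6.96 to 9.03) and Cntnap5a at 7.45 times (6.87 to 8.09) had larger ratios than any of the 10 members. Cntnap3, the third relative, stayed below 10 CPM in both classes, with 5.05 CPM in distal neurons.

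The levels of the 10 genes differed between core and distal neurons by less than the fold that was set. With a fold of 1.5, 0 of 10 members were higher and 0 lower in core neurons, while of 9588 genes 5.05% were higher and 11.2% were lower. Cntnap1 came closest, at 70.1 against 47.9 CPM, a ratio of 1.46 (1.29 to 1.67). Cntnap4 at 1.30 (1.21 to 1.39) and Cntn5 at 1.29 (1.26 to 1.33) followed, and Cntn3 at 0.76 (0.73 to 0.80) was lower in core neurons. The median log2 ratio was 0.14, against -0.01 over all genes. A scaling by trimmed means shifted the log2 ratios by 0.13, turned the split of all genes from 484 higher and 1070 lower to 960 and 841, and put Cntnap1 past the fold.

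Neuron clusters 1 (3693 core and 50 distal nuclei) and 9 (326 and 415) were left out as an alternative because they held excitatory and inhibitory transcripts side by side, with 55.3 CPM of Slc17a6 in core nuclei of both and 175 and 170 CPM of 4 inhibitory genes summed. Core nuclei of other clusters also held both, with 64.0 and 72.6 CPM in cluster 4, 63.0 and 95.2 CPM in cluster 7, 78.2 and 72.5 CPM in cluster 8 and 69.4 and 75.1 CPM in cluster 10, so the trait does not set clusters 1 and 9 apart in the core. Of the 4517 core and 1519 distal neurons left, 2 members were higher in the core, Cntnap1 at 1.65 (1.35 to 2.02) and Cntnap4 at 1.51 (1.37 to 1.66), with 6.34% of 9531 genes higher and 13.0% lower. Cntn5 at 1.48 (1.42 to 1.55) and Cntn6 at 1.45 (1.35 to 1.57) lay just inside the fold. Cntn2 changed side, from 1.10 (0.996 to 1.22) to 0.80 (0.69 to 0.92), so no direction is given for it.

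With all neuron clusters, and against the 5.05% and 11.2% of all genes given above, the other junction genes were compared in the same way. Among the 24 junction genes, 4 of 23 with at least 10 CPM were higher in core neurons and 3 lower. Kcnab2, a subunit of juxtaparanodal potassium channels, at 1.87 times (1.66 to 2.12) and Sptbn4 at 1.75 (1.67 to 1.83) were the highest. Cldn11 at 0.08 (0.06 to 0.10) and Opalin at 0.10 (0.06 to 0.15), both oligodendrocyte genes, were the lowest. Of the 12 genes with at least 10 CPM in the list of binding partners, Cntfr was higher at 1.54 (1.30 to 1.84) and Aplp1 lower at 0.48 (0.43 to 0.53). Cntfr is a receptor gene for ciliary neurotrophic factor and not an established contactin partner, although the list held it.

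**Figure D4:**
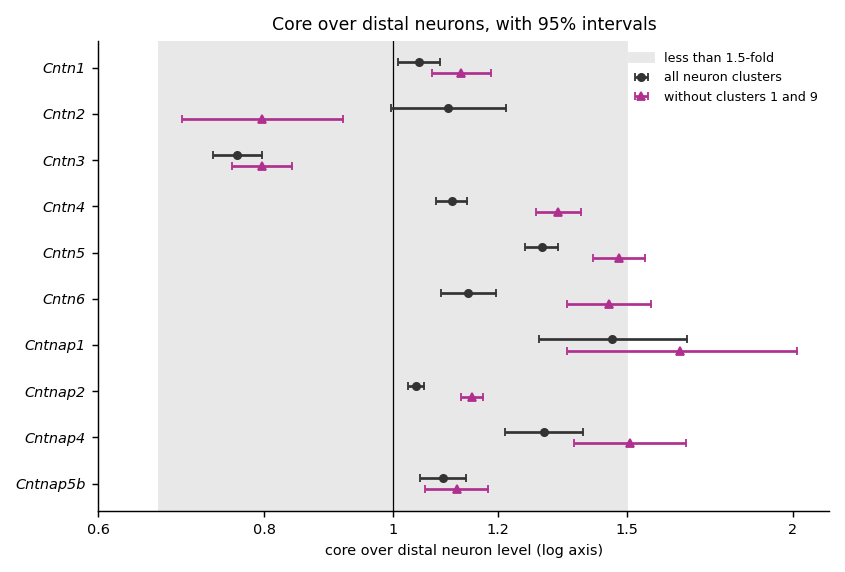
Ratio of the core over the distal neuron level for each gene (log axis, points with 95% intervals), with all neuron clusters (circles) and without clusters 1 and 9 (triangles), and ratios under 1.5-fold shaded. All circles lie inside the shading, and the triangles of Cntnap1 and Cntnap4 lie past it.

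Cluster 11, with 118 core and 428 distal nuclei, was compared between the libraries as well. Its highest marker score was that of fibroblasts, but its 10 leading genes held 0 fibroblast markers and 1 astrocyte marker, so it is left unnamed. The neuron and myeloid clusters also had 0 of their own markers among their leading genes, but 0 of another class. In cluster 11, 8 of 10 members were higher in the core and 0 lower, with 25.4% of 11463 genes higher and 34.8% lower. The 8 ran from 4.84 times for Cntnap4 (2.70 to 8.76) to 1.53 for Cntnap1 (0.58 to 3.64). The neuronal markers in the same nuclei summed to 4786 CPM in the core and 2164 CPM in the distal library. Their part in the member ratios was not tested.

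Within neurons, nuclei were parted by Slc17a6, the glutamate transporter of spinal excitatory neurons, and by the inhibitory genes Gad1, Gad2, Slc32a1 and Slc6a5. In the distal library 2 of 10 members were lower in the 250 excitatory-marked than in the 380 inhibitory-marked nuclei and 0 were higher, with 12.2% of 9995 genes lower and 9.70% higher at a fold of 1.5. Cntnap4 gave 140 CPM (116 to 167) and 261 CPM (236 to 287), a ratio of 0.54 (0.43 to 0.66), and Cntnap1 gave 38.5 and 60.6 CPM, a ratio of 0.63 (0.41 to 0.95) from 33 and 96 UMIs. In the core library, with 746 and 2111 nuclei, 0 members passed the fold in either direction, with 2.40% of 9121 genes higher and 3.08% lower. Cntnap4 had a ratio of 0.85 (0.76 to 0.94) there and Cntnap1 of 1.16 (0.96 to 1.40). The direction was thus shared by both libraries for Cntnap4 and not for Cntnap1.

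Inhibitory-marked nuclei were further parted by Slc6a5, the glycine transporter of glycinergic neurons. In the distal library, 163 glycinergic-marked nuclei held more Cntn5 than the 217 nuclei without Slc6a5, with a ratio of 1.52 (1.38 to 1.68), more Cntn6, with 1.33 (1.149 to 1.55), and more Cntnap2, with 1.24 (1.19 to 1.30). The core ratios were 1.06 (1.01 to 1.11), 1.07 (0.996 to 1.154) and 1.07 (1.05 to 1.10). These 3 genes pointed the same way in both libraries, while others did not. Cntnap1 had a core ratio of 1.37 (1.11 to 1.69) and a distal ratio of 0.97 (0.64 to 1.48), and Cntnap5b had 0.90 (0.84 to 0.96) and 1.01 (0.87 to 1.17). The difference between the libraries was not tested.

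Neuron clusters with at least 50 nuclei in a library, 11 in the core and 10 in the distal library, differed in the levels of the members. Cntnap2 was highest in cluster 20, led by Cpne4 and Bnc2, in both libraries, with 10125 CPM (9561 to 10713) from 53 distal nuclei and 7647 CPM (7277 to 8032) from 118 core nuclei. It was lowest in the distal library in cluster 21, led by Pkd1l2 and Pkd2l1, channel genes of neurons that contact the cerebrospinal fluid, with 2013 CPM (1807 to 2236). The distal highest value was therefore 5.03 times the lowest.

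Cntnap5b was highest in cluster 10, led by Nmu and Gna14, in both libraries, with 1377 CPM (1270 to 1490) distal and 1207 CPM (1128 to 1291) core. Cntn3 was highest in cluster 20 in both, with 1143 CPM (959 to 1352) and 780 CPM (665 to 909). Cntnap4 was highest in cluster 5, led by Pdzd2 and Rorb, in the distal library, with 420 CPM (368 to 478), and in cluster 16, with Pax2 and Gad1 among its leading genes, in the core library, with 489 CPM (441 to 541). The 41 distal nuclei of cluster 16, below the minimum of 50, gave 649 CPM (524 to 795). The inhibitory genes Gad1, Gad2, Slc32a1 and Slc6a5 summed to 407 CPM in core and 460 CPM in distal nuclei of cluster 16, and to 269 and 238 CPM in cluster 5. Cntnap4 was lowest in cluster 10, where they summed to 75.1 and 24.7 CPM, with 24.7 CPM (12.3 to 44.2) distal and 112 CPM (88.6 to 140) core. The level of Cntnap4 did not follow these sums in every cluster. In cluster 14 the inhibitory genes summed to 217 CPM in core and 228 CPM in distal nuclei, with Cntnap4 at 150 and 123 CPM. In the 58 distal nuclei of cluster 21 they summed to 272 CPM, with Cntnap4 at 57.8 CPM (27.7 to 106).

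Cntn5 and Cntn6 had lower values in distal than in core nuclei of some clusters. Cluster 10 had the lowest Cntn6 of both libraries, and cluster 7 the lowest Cntn5 of the distal library only. Cntn5 gave 193 CPM (162 to 229) in distal nuclei of cluster 7, led by Bnc2 and Pde11a, and 792 CPM (732 to 856) in its core nuclei. Cntn6 gave 69.6 CPM (47.3 to 98.8) in distal and 242 CPM (207 to 281) in core nuclei of cluster 10. Background-like barcodes of the core held 1358 CPM of Cntn5 and 469 CPM of Cntn6, more than either cluster, and the part of free RNA in these core values was not tested. Cluster 7 had Pde11a and Prex2 among its leading genes. At the finer clustering so had a cluster of 534 core and 84 distal nuclei and another of 2 core and 216 distal nuclei. Whether core and distal nuclei of cluster 7 are the same neuron types was not tested. Across the 9 clusters with at least 50 nuclei in both libraries, core and distal log2 levels had a Pearson r from 0.43 for Cntn4 to 0.96 for Cntn3, with 0.91 for Cntnap2.

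**Figure D5:**
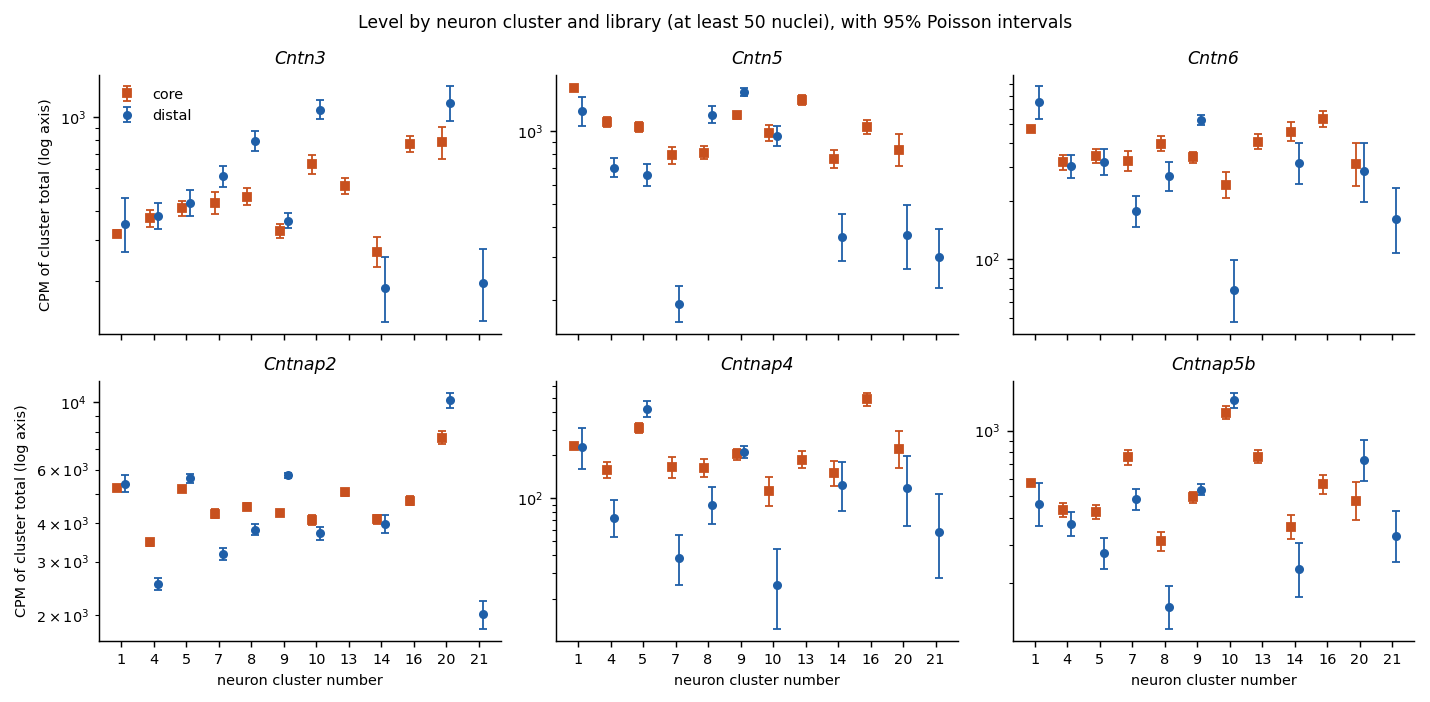
Level of 6 members (CPM of the cluster total, log axis, with 95% Poisson intervals) in each neuron cluster with at least 50 nuclei, core as squares and distal as circles. Cntnap2 peaks in cluster 20 and Cntnap5b in cluster 10 in both libraries, and distal nuclei fall below core nuclei for Cntn5 in cluster 7 and for Cntn6 in cluster 10.

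Patterns were compared over 13 class-and-library groups of at least 50 nuclei, by Pearson r of log2 (CPM + 5), as a description, since the groups share 2 libraries and their free RNA. The myeloid groups here were the 876 distal and 57 core nuclei of the main clustering, including the 525 with oligodendrocyte transcripts. Cntn2 stood in these 876 nuclei at 2.58 times the neuronal level, against 1.06 times in the 349. The part of these nuclei in the r values was not tested. Cntnap2 resembled Lingo2 (r = 0.996), Nrg1 (0.99) and Fstl5 (0.98) most. Cntn1 was most like Nrcam (0.96), Luzp2 (0.92) and Bcan (0.92), and Cntn2 most like Fan1 (0.97), Arsg (0.96) and Npsr1 (0.93). Cntn3 had the loosest matches, Jph4 (0.86), Gdpd1 (0.85) and Amph (0.85). Between members, Cntn5 and Cntnap2 had r = 0.97, as had Cntnap2 and Cntnap5b, while Cntn2 had r from -0.78 with Cntnap1 to 0.0035 with Cntn3. The paranodal pair Cntn1 and Cntnap1 had r = 0.31 and the juxtaparanodal pair Cntn2 and Cntnap2 had r = -0.70.

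The closest genes of the other 6 members had r from 0.95 to 0.99. They were Khdrbs2, Rgs7bp and Nexmif for Cntn4 (r from 0.97 to 0.99), Zmat4, Chrm3 and Htr2c for Cntn5 (all 0.98), and Gria3, Lrrtm4 and Me3 for Cntn6 (0.96 to 0.97). For Cntnap1 they were Lypd6b, Cpne7 and Mapkbp1 (0.95 to 0.96), for Cntnap4 Zmat4, Kcnb2 and Hs6st3 (0.96 to 0.97), and for Cntnap5b Kcnmb2, Hecw1 and Gabbr2 (all 0.99).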

How the data were processed

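The authors deposited 1 raw UMI count matrix per library, written by Cell Ranger 7.1.0 per the file headers. The submitters' processing notes name Cell Ranger, Seurat, GRCh38 and mm10 without their use, and no source used here says whether introns were counted. Feature identifiers matched GENCODE M21 on GRCm38 for 99.8% of genes, and positions come from there.

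A barcode needed 300 genes and no more than 5% of its UMIs from mitochondria (2 core and 9 distal barcodes failed). Counts scaled to 10000 per nucleus, 2000 variable genes (without the family, Neurod1, mitochondrial and sex-linked genes), 40 components and 15 neighbours were clustered with leidenalg 0.10.2 (scanpy 1.11.5, Python 3.11.15) at resolution 1.0 into 25 clusters, and at 2.0 for the lineage stages and myeloid values. The comparison of patterns used the myeloid nuclei of resolution 1.0. Clusters took the class with the highest marker score. They were set aside when background-like (dispersion at the 90th percentile of genes under 1.15), blood, mitochondrial or mixed. Scrublet called 0 doublets, its thresholds lying above every score, so it had not worked and doublets were left in.

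UMIs were summed per class and library. Because each region has 1 library, no model was run and there are no p-values. Intervals are exact at 95% and cover counting error only. Calls needed at least 10 CPM in 1 group and a fold of 1.5 (libraries, neuron types) or 2 (classes). The calls and intervals were run on simulated Poisson counts, the same counting model that the intervals assume. The simulation held no variation between nuclei or mice, no free RNA and no small class, so it checks the code only. The 10 members, the gene lists and the markers were chosen with earlier results of these data known. All members are named, at most 2 genes per direction from other lists, and the 3 closest genes per member in pattern, among genes with at least 50 CPM in 1 group. Alternatives were resolutions of 0.5 and 2.0, nuclei classed singly, at least 500 genes, removal of the top 5% of doublet scores, trimmed-mean scaling, no minimum level, means over nuclei and other folds. Leaving out clusters 1 and 9 was added after seeing the data. Part of the results on related genes is not reported here.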

Additional observations from a re-analysis of the deposited data

How the results depend on the processing

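Between distal neurons and oligodendrocytes, 8 members were higher and 1 lower under each alternative run, except that 7 were higher at a fold of 3. Of 5 distal classes, neurons held the highest level of 8 members, and of 7 without clusters 1 and 9, where Cntn6 was highest in OPCs. Between core and distal neurons 0 members were higher in the main setting, 1 at Leiden resolution 2.0, 1 with trimmed-mean (TMM) scaling and 1 with the mean of CPM over nuclei, in each case Cntnap1, and 2 without clusters 1 and 9. Between core neurons and oligodendrocytes 5 were higher and 1 lower in the main setting, 8 and 0 with trimmed-mean scaling, and 3 and 0 at a fold of 3, where the stricter fold itself lowers the count. The Cntn2 ratio of core over distal neurons ranged from 0.797 to 1.204 and was never past the fold. Of the single-gene values under alternatives, 644 lay within the counting interval of the main value and 135 outside it. Part of the 644 could not move. Another fold or no minimum level left every ratio as it was, and leaving out clusters 1 and 9 left the glial levels unchanged. The tally is therefore no measure of how stable the values are. No paired analysis was possible because each region has 1 library, and no replicate could be left out. The 17 core oligodendrocytes of the main setting limit every core ratio to them. Classing nuclei singly gave 142 in the core. The 702 core barcodes set aside as blood or mitochondrial held oligodendrocyte markers at 8053 CPM summed, against 394 CPM in core neurons. The 17 are thus not all the core barcodes with oligodendrocyte transcripts.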
